A study of Mus musculus with 16 samples.

Results

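Complement is a chain of plasma proteins, and 9 genes whose mRNAs encode components that the liver secretes are described here: C3, C4b, C2, C6, C8a, C9, Cfb, Cfi and Masp1. They were taken by gene symbol from the 57010 genes listed in the deposited table, in which each of the 9 symbols occurred once. Liver RNA came from 16 male wild-type C57BL/6J mice, with 4 mice in each of 4 groups. The methods of the study give an age of 8 to 12 weeks. Its design figure has mice of 8 weeks starting a diet of 3 months, so mice on the diet were older at collection. Cd mice received an intraperitoneal injection of CdCl2 at 1.25 mg/kg on each of 7 days. Se mice were fed selenomethionine (SeMet) at 2 ppm for 3 months, and Cd+Se mice received both treatments, with CdCl2 in the last 7 days of the diet. Control mice received neither, and whether they were given a vehicle injection is not given in the sources used here. Levels are in TPM, a transcript level scaled to transcript length and to the same total in each library, so levels of different genes can be set side by side. The question of the design was how Cd alters the liver transcriptome and whether dietary Se, given before and during Cd, modifies it.

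Complement is started by 3 routes. In the classical and lectin routes, recognition proteins activate serine proteases such as MASP-1, encoded by Masp1. These lead to the cleavage of C4 and C2, which together form an enzyme that cleaves C3. In the alternative route, factor B (Cfb) is the protease partner of deposited C3 and amplifies the reaction, whereas factor I (Cfi) is the protease that inactivates it with the help of cofactors. C6, C8 and C9 then join C5 and C7 in the membrane attack complex, in which C8a encodes the alpha chain of C8 and C9 forms the ring of the pore. Hepatocytes are the main source of most of these plasma proteins, and several, C3, C4 and factor B among them, belong to the acute-phase proteins whose genes respond to IL-6 and IL-1.

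The genes lie on 5 chromosomes in GENCODE M21, an annotation of GRCm38, matched here by Ensembl identifier. On chromosome 17, C4b (ENSMUSG00000073418) spans 34728380 to 34743882, Cfb (ENSMUSG00000090231) 34856374 to 34862518 and C2 (ENSMUSG00000024371) 34862604 to 34898265. Cfb and C2 encode related proteases and are separated by 86 bases on the same strand. C3 (ENSMUSG00000024164) lies farther along chromosome 17, from 57203970 to 57228136. C6 (ENSMUSG00000022181) and C9 (ENSMUSG00000022149) are both on chromosome 15, from 4727175 to 4814967 and from 6445327 to 6498751. C8a (ENSMUSG00000035031) is on chromosome 4 from 104815679 to 104876398, Cfi (ENSMUSG00000058952) on chromosome 3 from 129835884 to 129875332, and Masp1 (ENSMUSG00000022887) on chromosome 16 from 23449417 to 23520815. The submitters' processing notes name GRCh38, a human build, although the table lists mouse Ensembl identifiers, so the build behind the TPM is not certain.

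Some of these loci share sequence with other genes. The longest transcripts of C4b and C4a, its near-identical copy, were identical at 96.1% of 5367 aligned bases, and 48.8% of the 31-base words of the C4b transcript occurred in C4a. Reads can therefore be divided between these copies, and the C4b level is uncertain to that extent. In addition, the read-through gene Gm20547 overlaps both Cfb and C2 but was listed at 0.87 TPM or less in each mouse. Rtp4, on the strand opposite to Masp1, was 14.9 ± 1.77 TPM in the control group and 11.1 ± 0.812 TPM in the Cd group (SD, n = 4), and whether the libraries kept the strand is not given in the sources used here.

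RefSeq promoter sequences (GRCm38.p6), from 250 bases before to 50 bases after the annotated start, matched 4 of the 9 members. They are shown because they cover C3 and the 3 terminal components C6, C8a and C9, of which C6 and C9 mRNA passed the test as lower with Cd and C8a did not pass. The windows are chr17:57228087-57228386 on the minus strand for C3, chr15:4726960-4727259 on the plus strand for C6, chr4:104876349-104876648 on the minus strand for C8a and chr15:6445096-6445395 on the plus strand for C9. Each is written 5′ to 3′ in the direction of transcription, and capitals mark the motif matches.
C3: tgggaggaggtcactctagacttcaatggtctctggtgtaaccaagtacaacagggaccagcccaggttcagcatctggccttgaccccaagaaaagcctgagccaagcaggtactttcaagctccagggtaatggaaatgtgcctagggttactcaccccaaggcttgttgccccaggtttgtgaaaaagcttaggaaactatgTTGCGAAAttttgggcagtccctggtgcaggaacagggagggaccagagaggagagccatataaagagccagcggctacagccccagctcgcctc
C6: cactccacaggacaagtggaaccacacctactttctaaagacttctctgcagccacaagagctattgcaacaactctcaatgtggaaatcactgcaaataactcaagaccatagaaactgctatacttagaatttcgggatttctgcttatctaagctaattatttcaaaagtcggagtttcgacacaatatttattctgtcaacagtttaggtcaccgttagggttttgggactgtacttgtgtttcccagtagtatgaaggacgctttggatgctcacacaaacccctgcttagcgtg
C8a: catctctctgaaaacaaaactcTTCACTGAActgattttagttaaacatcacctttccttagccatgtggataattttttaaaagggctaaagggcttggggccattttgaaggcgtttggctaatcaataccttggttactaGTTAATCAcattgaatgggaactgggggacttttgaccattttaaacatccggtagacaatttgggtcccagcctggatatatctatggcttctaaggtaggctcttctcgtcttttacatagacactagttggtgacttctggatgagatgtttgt
C9: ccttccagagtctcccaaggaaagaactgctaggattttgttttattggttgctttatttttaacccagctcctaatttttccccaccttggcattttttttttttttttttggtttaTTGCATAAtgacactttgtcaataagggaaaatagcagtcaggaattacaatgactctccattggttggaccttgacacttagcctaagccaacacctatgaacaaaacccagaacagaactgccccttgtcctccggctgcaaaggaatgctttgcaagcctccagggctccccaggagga
The motifs were searched on both strands. The C/EBP motif TTGCNNAA was found in C3 from -45 to -38 and in C9 from -132 to -125, counted from the start with -1 as the base before it. It was present in 10.8% of the 27025 promoters of the same length. C8a held the STAT motif TTCNNNGAA (8.47% of promoters) from -228 to -220 and the HNF1 motif GTTAATNA (2.63% of promoters) from -107 to -100. These 4 matches did not overlap. In C6 there was no match to any motif searched. The ISRE-like motif GAAANNGAA (8.57% of promoters), the HNF4 motif CAAAGTCCA (0.477%), the metal response element TGCACNC or TGCGCNC (25.6%) and the NF-kB consensus (8.18%) had no match in these 4 windows. A match describes letters in the window and was not tested as a binding site.

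In control livers the members differed in level by more than an order of magnitude. C3, the central component, was the most abundant at 1382 ± 60.3 TPM (SD, n = 4). It was followed by Cfb at 648 ± 14.1 TPM, and these mRNAs did not overlap with each other or with the next in order in the control mice. Cfi at 393 ± 26.8 TPM, C9 at 356 ± 43.0 TPM, C8a at 318 ± 41.4 TPM and C4b at 313 ± 69.3 TPM formed a run in which each neighbour overlapped with the next. C6 at 126 ± 6.71 TPM, C2 at 45.3 to 56.2 TPM and Masp1 at 34.4 ± 2.92 TPM came last, each apart from its neighbours. Among the control mice the coefficient of variation was lowest for Cfb, at 2.18%, and highest for C4b, at 22.1%. In Cd mice, C6 overlapped with C2, which it did not in the other groups.

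The sum of the members was 3620 ± 190.4 TPM (SD, n = 4) in the control group and 3326 ± 314 TPM in the Cd group. With Se it was 4354 ± 593 TPM after Cd and 3740 ± 494 TPM without Cd. C3 alone made up 38.2% ± 1.31 of that sum in the control group, 32.6% ± 3.84 with Cd, 43.2% ± 4.58 with both and 39.8% ± 4.34 with Se. The lowest Cd+Se mouse had 3684 TPM in sum and the highest Cd mouse 3707 TPM, so these groups overlapped.

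**Figure D1:**
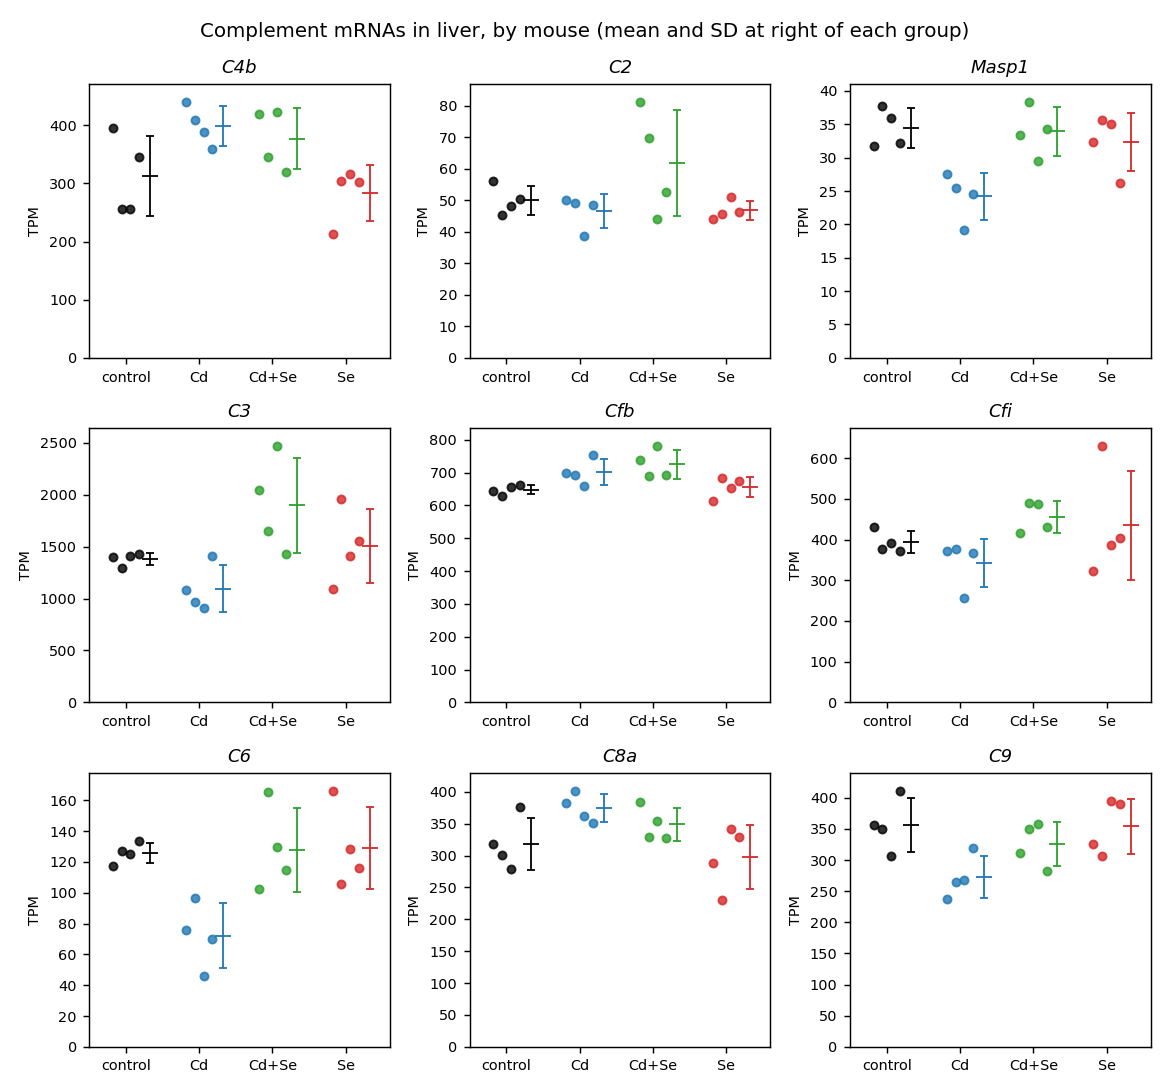
TPM (vertical axes, from 0) of the 9 members in each mouse of the 4 groups, with the group mean and SD (n = 4) at the right of the points. C6 and Masp1 were lower in each Cd mouse than in each control mouse. C3 was higher in each Cd+Se mouse than in each Cd mouse. The highest values of C4b, C8a and Cfb were in mice given Cd, but Cd and control mice overlapped for each.

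The libraries differed in ways that bear on these values. The median log2(TPM + 1) of the tested genes was between 2.90 and 3.36 in 15 libraries and 2.68 in Cd mouse 5, in which mitochondrially encoded genes took 22.2% of the TPM against 12.8% to 18.0% elsewhere. Mt1 and Mt2, metallothionein genes that Cd induces, matched the labels as to Cd: Mt1 was between 3178 and 6070 TPM in the mice given Cd and between 50.9 and 431 TPM in the others. They do not check the labels as to Se, since neither passed in Cd+Se against Cd (limma adjusted p of 0.758 and 0.834). The 8 hepatocyte markers were above 0 in each library, as the tissue label requires. Their summed TPM ranged from 58413 to 80687 in the control group, 38756 to 66071 in the Cd group, 49301 to 70885 in the Cd+Se group and 58145 to 113411 in the Se group. In Cd against control 2 of the 8, Cps1 and Hnf4a, were lower and 6 did not pass the test. Depth is unknown, because TPM keep none, and that the mice are separate animals rests on the numbers in their labels. Each sample title names a pair of replicates of its mouse, while the deposited table has a single column per mouse. How the replicates were combined is not given in the sources used here.

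With Cd, C6, Masp1 and C9 mRNA fell, and none of the 9 rose at the threshold. On average C6 was at 0.574 times, Masp1 at 0.702 times and C9 at 0.766 times the control mean. C4b, C8a and Cfb, in contrast, had averages of 1.28, 1.18 and 1.08 times the control mean without passing the test. The test was limma on log2(TPM + 1) in one model over the 16 libraries, with p-values adjusted over the 11766 genes whose mean reached 1 TPM, among which all 9 members were. In that comparison 30.8% of all tested genes passed an adjusted p of 0.05 and 24.9% passed as lower, beside 3 of 9 members, all lower, a share near that background. The median log2 fold change was -0.21 over the members and -0.17 over all tested genes. In whole liver, fewer cells of a type and less RNA per cell cannot be told apart.

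C6, a component of the membrane attack complex, was 117, 127, 125 and 134 TPM in control mice 27 to 30. In Cd mice 1, 2, 5 and 6 it was 75.8, 96.8, 46.1 and 70.1 TPM. The groups did not overlap, and Cd mouse 5 was the lowest. Relative to control, C6 had a log2 fold change of -0.84 (SE 0.197, 95% interval -1.26 to -0.42, limma adjusted p = 0.00541), or -0.67 relative to the median of all genes. Without Cd mouse 5, C6 was still lower, and leaving out any 1 of the 16 mice kept it between -0.99 and -0.64.

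Masp1, a protease gene of the lectin route, was 31.8, 37.8, 36.0 and 32.2 TPM in the control mice. It was 27.6, 25.4, 19.2 and 24.6 TPM in the Cd mice, again without overlap and with Cd mouse 5 lowest. Its log2 fold change was -0.50 (SE 0.129, 95% interval -0.77 to -0.23, limma adjusted p = 0.00912), or -0.33 relative to the median of all genes. C6 and Masp1 were the only members without overlap between Cd and control, where 27.8% of all tested genes lay wholly lower in Cd.

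C9, the pore-forming component, was 356, 349, 307 and 411 TPM in the control mice and 238, 265, 269 and 319 TPM in the Cd mice. The highest Cd mouse was above the lowest control mouse, so the groups overlapped. C9 had a log2 fold change of -0.38 (SE 0.128, 95% interval -0.65 to -0.11, limma adjusted p = 0.0331), or -0.21 relative to the median of all genes. This call was close to the threshold: it was lost without control mouse 27, 28 or 30 and without Cd mouse 1, 2 or 5 (adjusted p from 0.0607 to 0.102). It was also lost under each of the 3 other scalings and with weakly expressed genes kept in the test, and with the libraries centred on their medians C9 was at -0.16 with a limma adjusted p of 0.473.

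C8a, the third terminal member, did not pass the test. It was 317, 301, 279 and 376 TPM in the control mice and 383, 402, 362 and 351 TPM in the Cd mice, in which mice 1 and 2 were above all controls. Its log2 fold change was 0.24 (95% interval -0.03 to 0.51, limma adjusted p = 0.162).

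C3 was 1402, 1293, 1406 and 1426 TPM in the control mice. It was 1083, 968, 906 and 1415 TPM in the Cd mice, so 3 Cd mice were below all controls and Cd mouse 6 was within their range. C3 had a log2 fold change of -0.36 (SE 0.190, 95% interval -0.76 to 0.04, limma adjusted p = 0.162). After quantile normalization it was -0.56 with a limma adjusted p of 0.0159.

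Cfb, a protease gene of the alternative route, was 645, 629.5, 655 and 662 TPM in the control mice. In the Cd mice it was 699.8, 693, 658 and 754 TPM. Only Cd mouse 5 was within the control range. Cfb had a log2 fold change of 0.11 (95% interval -0.07 to 0.29, limma adjusted p = 0.334).

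C4b was 395, 255, 256 and 346 TPM in the control mice and 441, 409, 388 and 359 TPM in the Cd mice. A pair of control mice, 28 and 29, accounted for the lowest values, and the groups overlapped. The log2 fold change of C4b was 0.37 (SE 0.163, 95% interval 0.03 to 0.72, limma adjusted p = 0.0936), and with C4a and C4b summed it was 0.32 (limma adjusted p = 0.148). Without control mouse 27 the limma adjusted p was 0.0384.

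C2, which supplies the catalytic part of the classical C3-cleaving enzyme, was 56.2, 45.3, 48.2 and 50.5 TPM in the control mice and 50.2, 49.0, 38.6 and 48.4 TPM in the Cd mice. Cfi was 432, 378, 392 and 372 TPM in the control mice and 372, 377, 255 and 366 TPM in the Cd mice. In both genes the groups overlapped and Cd mouse 5 was the lowest of its group. The log2 fold change was -0.11 for C2 (95% interval -0.44 to 0.23) and -0.21 for Cfi (95% interval -0.58 to 0.15), with limma adjusted p of 0.644 and 0.370. Without Cd mouse 5 they were -0.019 and -0.078.

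The scaling of the libraries moved the whole set. The median change of all tested genes in Cd against control was -0.17 for the deposited TPM, -0.01 with quantile normalization and 0.05 with centring on library medians. After centring, 5 members passed the test: C6 and Masp1 were lower, at -0.62 and -0.28 (limma adjusted p of 0.0188 and 0.0475), whereas C4b, C8a and Cfb were higher, at 0.59, 0.46 and 0.33 (limma adjusted p of 0.0124, 0.0365 and 0.0150). C6 and Masp1 were thus called lower, and C4b, C8a and Cfb had positive differences, under each of the 4 scalings, while C2 and Cfi changed sign with centring and C2 also with quantile normalization.

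**Figure D2:**
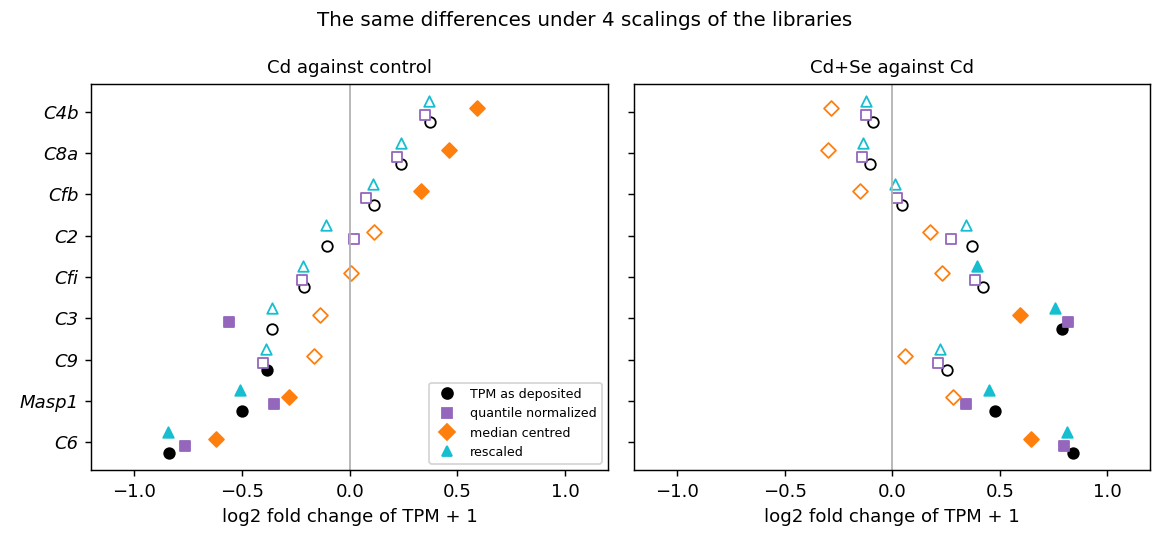
Log2 fold change of TPM + 1 (horizontal axes) of each member in Cd against control (left) and Cd+Se against Cd (right), with TPM as deposited, quantile normalized, centred on each library's median, or rescaled without mitochondrial, metallothionein and Mup genes. Filled symbols had a limma adjusted p under 0.05. Centring moved all members to the right in Cd against control and to the left in Cd+Se against Cd, and C6 was filled in all 8 cases.

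Ratios of TPM between members within a mouse do not change when its library is rescaled by 1 factor, though quantile normalization can change them, and they are given as a description, chosen after the values were seen. The ratio of C6 to C8a was between 0.356 and 0.449 in control mice and between 0.128 and 0.241 in Cd mice. That of C9 to C8a was between 1.10 and 1.16 in control mice and between 0.622 and 0.907 in Cd mice. Each Cd mouse thus had less C6 and less C9 relative to C8a than each control mouse. C3 over Cfb was 2.13 ± 0.0542 (SD, n = 4) in control mice and 1.55 ± 0.232 in Cd mice, without overlap. C4b over C3 was 0.226 ± 0.0452 in control mice and 0.378 ± 0.0833 in Cd mice, with Cd mouse 6 at 0.254 and the other Cd mice between 0.407 and 0.429. The groups overlapped for this ratio.

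**Figure D3:**
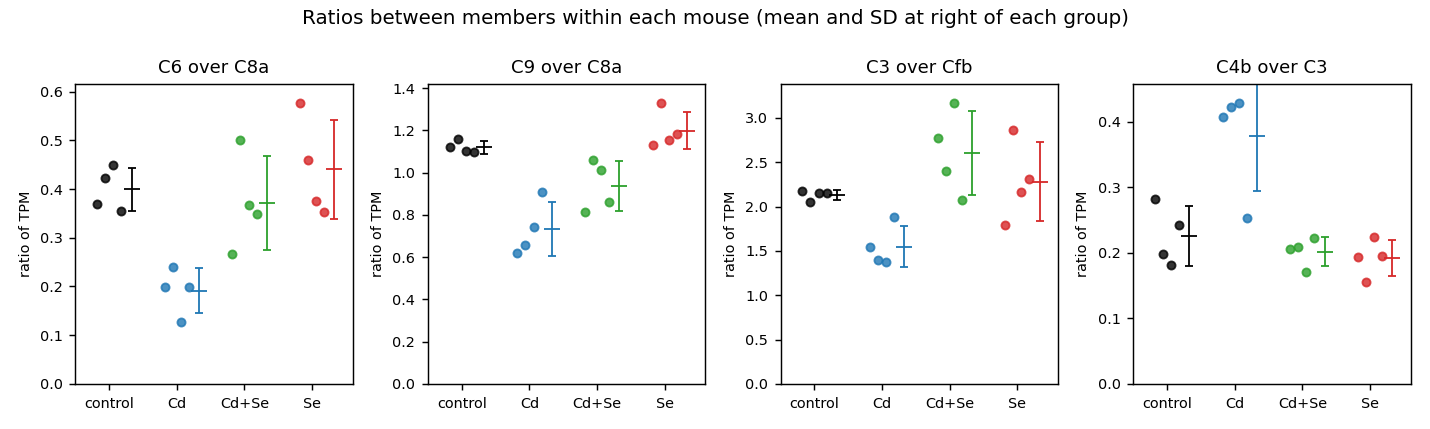
Ratios of TPM between members within each mouse (vertical axes, from 0) in the 4 groups, with the mean and SD (n = 4) at the right of the points. C6 over C8a, C9 over C8a and C3 over Cfb were lower in each Cd mouse than in each control mouse.

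In Cd+Se mice, C3, C6 and Masp1 mRNA were higher than in Cd mice, and no member was lower at the threshold. The averages were 1.74 times the Cd mean for C3, 1.77 times for C6 and 1.40 times for Masp1. Of all tested genes 15.9% passed the test in this comparison and 13.6% passed as higher, beside 3 of 9 members, all higher. The median log2 fold change was 0.37 over the members and 0.17 over all tested genes. The same Cd mice enter both comparisons, so opposite directions between them are not independent.

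C3 was 2046, 1649, 2470 and 1432 TPM in Cd+Se mice 13 to 16. Each of these values was above the highest Cd mouse, although mouse 16 exceeded it by little. Against Cd, C3 had a log2 fold change of 0.79 (SE 0.190, 95% interval 0.39 to 1.19, limma adjusted p = 0.0154), or 0.62 relative to the median of all genes. Without Cd mouse 5 the limma adjusted p was 0.0519.

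C6 was 102, 165, 129.6 and 114 TPM in the Cd+Se mice, above all Cd mice and around the control values. On the log2 scale it differed from Cd by 0.84 (SE 0.197, 95% interval 0.42 to 1.26, limma adjusted p = 0.0147), or 0.67 relative to the median of all genes. Without Cd+Se mouse 14, the highest of its group, the limma adjusted p was 0.0501.

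Masp1 was 33.5, 38.4, 29.5 and 34.3 TPM in the Cd+Se mice, also above all Cd mice. Its difference from Cd was 0.48 on the log2 scale (SE 0.129, 95% interval 0.20 to 0.75, limma adjusted p = 0.0239), or 0.31 relative to the median of all genes. The limma adjusted p of Masp1 was 0.0703 without Cd mouse 5, 0.0770 without Cd+Se mouse 14 and 0.0694 after centring. When the fit was restricted to Cd and Cd+Se mice, 0 of the 9 members passed (limma adjusted p of 0.0711 for C3, 0.0741 for C6 and 0.0885 for Masp1), and neither did most other genes, with 0.561% of all tested genes past the threshold in that fit.

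Cfi was 416, 490.2, 487 and 429.7 TPM in the Cd+Se mice and did not overlap with the Cd mice. Its log2 fold change was 0.42 (95% interval 0.06 to 0.79, limma adjusted p = 0.103, and 0.0346 without Se mouse 40). That mouse is in neither group compared and enters only the spread that all groups share. When rescaled without mitochondrial, metallothionein and Mup genes, Cfi was at 0.39 with a limma adjusted p of 0.0361. Together with C3, C6 and Masp1 it made 4 members that lay wholly higher in Cd+Se than in Cd, where 16.1% of all tested genes did.

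C2 was 81.3, 69.7, 43.9 and 52.5 TPM in the Cd+Se mice, so mice 13 and 14 were well above the Cd mice and mouse 15 was within their range. C2 had a log2 fold change of 0.37 (95% interval 0.04 to 0.70, limma adjusted p = 0.114), and without Cd+Se mouse 15 it was 0.52 with a limma adjusted p of 0.0357. C9 was 311, 350.1, 358 and 282 TPM in the Cd+Se mice, overlapping with both Cd and control. Its log2 fold change was 0.26 (95% interval -0.02 to 0.53, limma adjusted p = 0.174).

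Cfb, C4b and C8a did not pass the test in this comparison either. Cfb was 738, 688, 781 and 691 TPM in the Cd+Se mice, C4b was 420.3, 345, 422 and 319 TPM, and C8a was 383, 329.7, 354 and 328 TPM. The log2 fold changes against Cd were 0.05 for Cfb (95% interval -0.13 to 0.23), -0.09 for C4b (95% interval -0.44 to 0.26) and -0.10 for C8a (95% interval -0.37 to 0.17), with limma adjusted p of 0.735, 0.732 and 0.604. After centring, that of Cfb was -0.15.

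**Figure D4:**
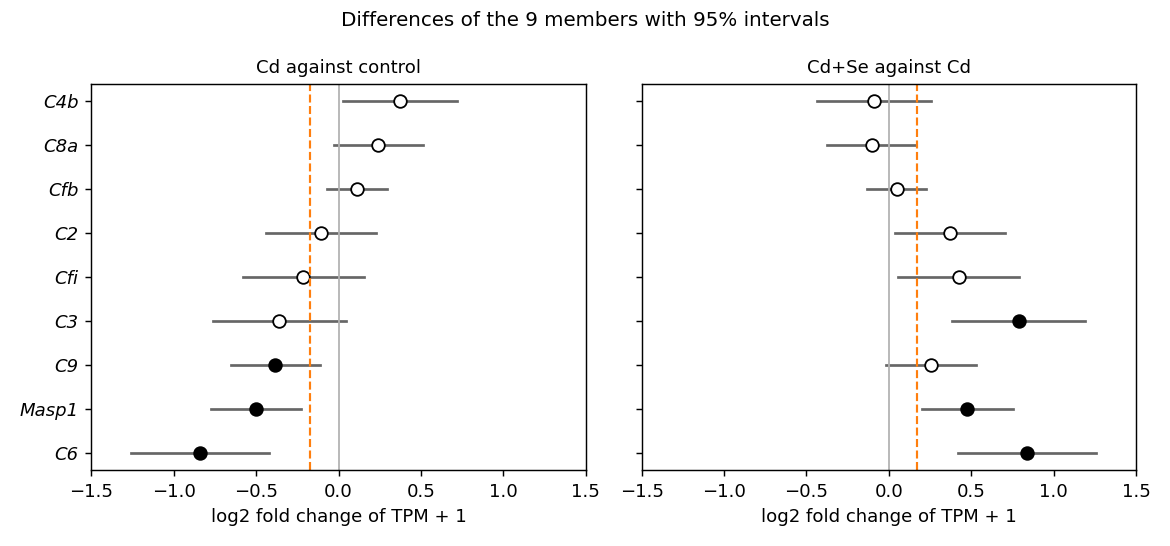
Log2 fold change of TPM + 1 with its 95% interval (horizontal axes) for each member in Cd against control (left) and Cd+Se against Cd (right). Filled points had a limma adjusted p under 0.05, and the dashed line is the median of all tested genes, -0.17 on the left and 0.17 on the right. C6 and Masp1 were filled on both sides, C9 on the left only and C3 on the right only.

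Against control mice, 0 of the 9 members passed in Cd+Se mice, where 0.484% of all tested genes did. At an unadjusted p under 0.05 there was 1 of 9 members beside 10.9% of all tested genes, a share near that background. It was C3, with a log2 fold change of 0.43 (95% interval 0.03 to 0.83, limma adjusted p = 0.420). C3 and Cfb lay wholly higher in Cd+Se than in control, where 3.88% of all tested genes did. For C3 the margin was small, with 1432 TPM in the lowest Cd+Se mouse against 1426 TPM in the highest control mouse. The averages of C6 and Masp1 in Cd+Se mice were 1.02 and 0.985 times the control mean, with 95% intervals of the log2 difference from -0.42 to 0.42 and from -0.30 to 0.25.

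Se alone left no member past the threshold. Of all tested genes 0% passed in Se against control, and 3.86% of them but 0 members had an unadjusted limma p under 0.05. None of the members was without overlap, against 3.09% of all tested genes. The spread in the Se group was wide for Cfi, which was 322, 629.7, 385 and 404 TPM in Se mice 39, 40, 41 and 44, and for C3, which was 1095, 1957, 1413 and 1554 TPM. In both genes mouse 39 was the lowest and mouse 40 the highest. C6 went the other way, with 166 TPM in mouse 39 and 106 TPM in mouse 40. C4b was 213, 304, 317 and 303 TPM in the same mice, with mouse 39 apart from the rest.

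Between Cd+Se and Se mice, which differ in Cd, 0 of 9 members passed the test, where 0.714% of all tested genes did. C4b and Cfb lay wholly higher in Cd+Se, where 1.96% of all tested genes did. The margins were small. The lowest Cd+Se and the highest Se mouse were at 319.1 and 317.0 TPM for C4b, and at 688.1 and 683.5 TPM for Cfb. C4b had a log2 fold change of 0.41 (95% interval 0.07 to 0.76, limma adjusted p = 0.346) and Cfb of 0.14 (95% interval -0.04 to 0.32, limma adjusted p = 0.597). At an unadjusted limma p under 0.05 there were 2 of 9 members, C4b and C2, beside 10.9% of all tested genes. C2 was at 0.36 (95% interval 0.02 to 0.69, limma adjusted p = 0.414). C6 and Masp1 were at -0.01 and 0.07, with 95% intervals from -0.43 to 0.40 and from -0.20 to 0.35.

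The interaction of Cd and Se, the test of whether the Cd difference depends on diet, had 0 of 9 members past the threshold, where 1.04% of all tested genes passed. The unadjusted p was under 0.05 for 3 of 9 members and for 21.3% of all tested genes. Their interaction terms were 0.82 for C6 (95% interval 0.23 to 1.42, limma adjusted p = 0.121), 0.69 for C3 (95% interval 0.13 to 1.26, limma adjusted p = 0.160) and 0.57 for Masp1 (95% interval 0.18 to 0.96, limma adjusted p = 0.106).

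Some members varied together between mice of the same group, and most did not. Across the 16 mice, after each value was set against its group mean, the Pearson r was positive in 24 and negative in 12 of the 36 pairs of members, with a median of 0.15 and 4 pairs over 0.5. C3 and Cfb had an r of 0.95 and C3 and Cfi of 0.65, whereas C8a and Cfi had -0.43, the lowest. Over the raw log2 levels of the 16 mice, Masp1 and C6 had the highest r among the member pairs, 0.81, and within groups theirs was 0.49. These are descriptions over 16 libraries that share group and scale. The library's own median log2 level had an r of 0.83 with Cfi and 0.77 with Masp1 but -0.52 with C8a, and its part in these relations was not tested.

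By the same measure, the genes most like each member were sought among 4764 protein-coding genes whose mean reached 10 TPM. Pnp was closest to C3 (r = 0.89), C4bp to Cfi (0.94) and Vtn, the gene of vitronectin, to C4b (0.90). Hp, the haptoglobin gene, was closest to Cfb (0.88), and Hmox1, the heme oxygenase gene, was next (0.84). For Masp1 the closest were Aqp1 (0.95), Ptprf (0.93) and Abca1 (0.93), for C6 Galnt1 (0.92), for C2 Plscr1 (0.86), for C8a H2ac18 (0.86) and for C9 Suox (0.80). All 16 mice and their groups enter each r.

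Of 46 other complement genes listed by role, 32 were expressed enough to be tested. In Cd against control 8 of them were lower, 2 were higher and 22 did not pass, with a median log2 fold change of -0.27, and the lower ones were again near the 24.9% of all tested genes. In Cd+Se against Cd 7 were higher, 0 were lower and 25 did not pass, with a median of 0.24, beside 13.6% of all tested genes higher and their median of 0.17. With only Cd and Cd+Se mice in the fit, 0 of the 8 called genes that are named in the text, from this list and from a list of receptors and transcription factors that act on complement genes, kept the call (Cfhr4, Clu, Cpn2, Itgb2, C8b, Hnf4a, Il6st and Nr1h4, limma adjusted p from 0.0562 to 0.145).

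Among the initiators, 12 were tested, and in Cd 4 were lower and 1 higher. C1qa, C1qb and C1qc, the 3 chains of the recognition protein C1q, were lower by log2 fold changes of -0.97, -0.70 and -0.81 (limma adjusted p of 0.00254, 0.00639 and 0.00591). C1qa was 32.1 ± 3.04 TPM in the control group and 16.1 ± 2.88 TPM in the Cd group (SD, n = 4). Fcna, a ficolin gene, was lower by -0.73 (limma adjusted p = 0.0304), a call lost after quantile normalization and centring (limma adjusted p of 0.0798 and 0.106), with weakly expressed genes kept in the test, and without control mouse 28, 29 or 30 or Cd mouse 2 or 5 (up to 0.0857). C1q and ficolin A are products of macrophages, and the macrophage markers were lower too: 6 of the 7 listed Kupffer cell and macrophage genes were lower in Cd. Their summed TPM ranged from 99.3 to 122 in the control group, 40.1 to 59.4 in the Cd group, 45.2 to 73.4 in the Cd+Se group and 56.5 to 132 in the Se group, and no marker was at 0 in any library. Their part in the C1q result was not tested. In Cd+Se against Cd, C1qa, C1qb and C1qc did not pass, with log2 fold changes of 0.26, 0.33 and 0.27. Mbl1, a mannose-binding lectin gene, was higher in Cd by 0.46 (limma adjusted p = 0.0208), and is named after its value was seen.

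C8b, the beta chain that joins with C8a in the C8 protein, was lower in Cd by -0.64 (limma adjusted p = 0.0134) and higher by 0.57 in Cd+Se against Cd (limma adjusted p = 0.0383), comparisons in which C8a did not pass. It was 137, 133, 125 and 147 TPM in the control mice and 98.8, 106, 66.4 and 80.5 TPM in the Cd mice. After centring, the limma adjusted p of C8b was 0.0902 and 0.157 in these comparisons. In Cd+Se against Cd its call was also lost after quantile normalization (0.0529), with weakly expressed genes kept in the test and without control mouse 28, Cd mouse 5 or 6 or Cd+Se mouse 13, 14 or 15 (limma adjusted p up to 0.126). The ratio of C8b to C8a was between 0.391 and 0.447 in control mice and between 0.184 and 0.264 in Cd mice. Hc, which encodes C5, was 303 ± 34.5 TPM in the control group and 248 ± 40.2 TPM in the Cd group (SD, n = 4), with a log2 fold change of -0.30 (limma adjusted p = 0.158, and 0.0440 after quantile normalization). C4a was 72.1 ± 32.7 TPM and 72.3 ± 8.44 TPM, with a log2 fold change of 0.10 (limma adjusted p = 0.862).

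Among the 10 tested fluid-phase regulators, 2 were lower and 1 was higher in Cd, and 4 were higher in Cd+Se than in Cd. Cpn2, a subunit of the carboxypeptidase that inactivates anaphylatoxins, was lower in Cd by -0.77 (limma adjusted p = 0.00198) and higher by 0.73 in Cd+Se against Cd (limma adjusted p = 0.00938). Cfhr4, a complement regulator gene of the same list, was lower by -0.69 (limma adjusted p = 0.00125) and higher by 0.53 in Cd+Se against Cd (limma adjusted p = 0.0151, and 0.0526 without Cd+Se mouse 14). Clu, the gene of clusterin, an inhibitor of the terminal complex, had a log2 fold change of -0.32 in Cd (limma adjusted p = 0.0587, and 0.00334 after quantile normalization) and of 0.37 in Cd+Se against Cd, at the edge of the threshold (limma adjusted p of 0.04995, 0.0340 to 0.142 with 1 library left out, and 0.372 after centring). Vtn, which restrains the terminal complex, was higher in Cd by 0.36 (limma adjusted p = 0.0226), though not after quantile normalization (0.17, limma adjusted p = 0.171) nor without control mouse 28 or 29 or Cd mouse 2 (limma adjusted p up to 0.0741).

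The 4 tested membrane regulators had no call in either comparison. Of 2 tested receptors, Vsig4, a macrophage receptor for C3 fragments, fell from 17.9 ± 1.26 TPM in the control group to 3.87 ± 0.468 TPM with Cd (SD, n = 4, log2 fold change -1.96, limma adjusted p = 5.25e-05). It stayed low in Cd+Se mice, at 4.74 ± 0.999 TPM, and was lower there than in control by -1.74 (limma adjusted p = 0.000758). Itgb2, an integrin chain of leukocyte complement receptors, was higher by 0.87 in Cd+Se against Cd (limma adjusted p = 0.0142). Its level was low, at 2.57 ± 0.375 TPM in the control group, 1.77 ± 0.156 TPM in the Cd group and 4.24 ± 1.58 TPM in the Cd+Se group (SD, n = 4). In Cd against control Itgb2 went the other way, by -0.36 (limma adjusted p = 0.184, and 0.0481 with only the groups compared). The summed TPM of the 6 neutrophil markers ranged from 5.84 to 15.8 in the control group, 31.8 to 40.9 in the Cd group, 44.3 to 73.3 in the Cd+Se group and 5.36 to 9.55 in the Se group, with Ly6g, Retnlg, Ngp and Mpo at 0 in at least 1 library, and their part in the Itgb2 result was not tested.

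**Figure D5:**
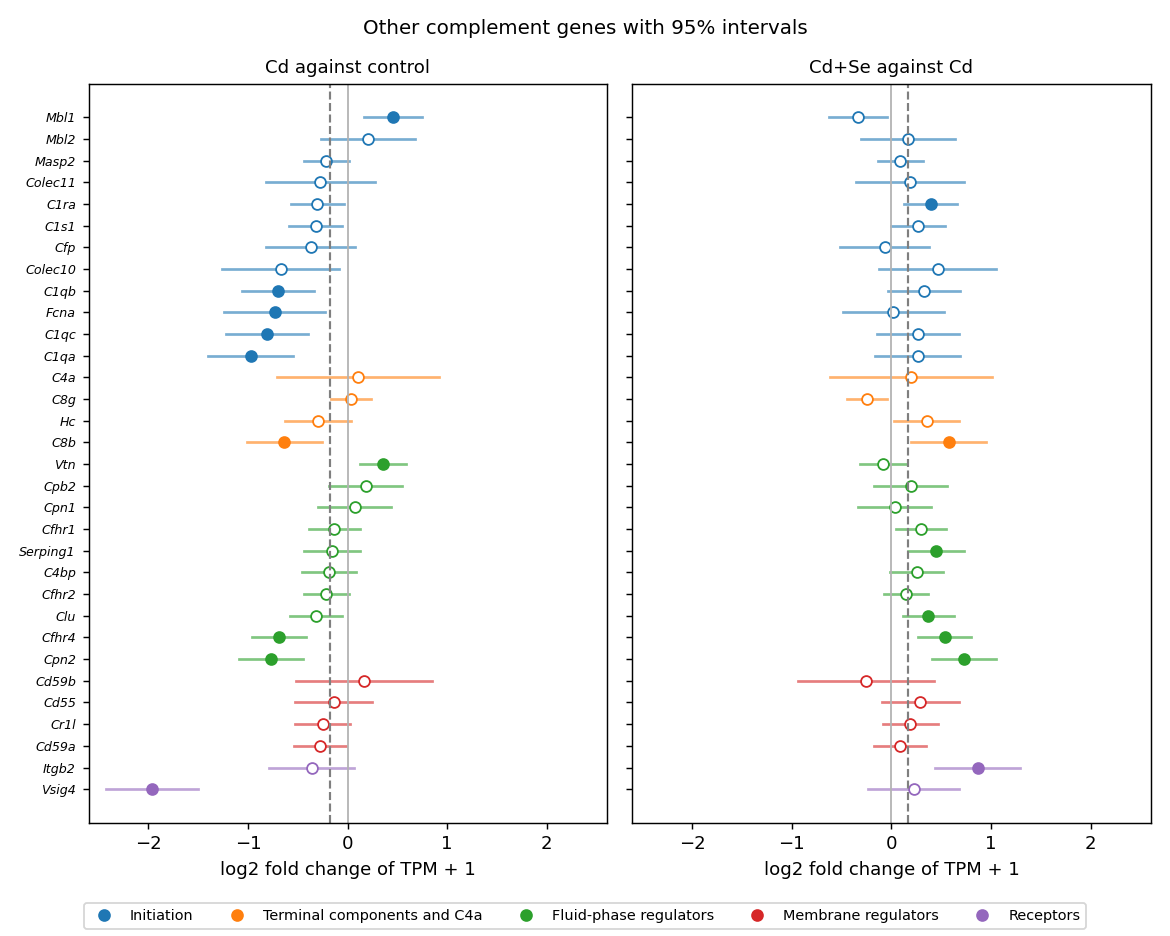
Log2 fold change of TPM + 1 with its 95% interval (horizontal axes) for the 32 other complement genes tested, by role, in Cd against control (left) and Cd+Se against Cd (right). Filled points had a limma adjusted p under 0.05, and the dashed line is the median of all tested genes. On the left 8 filled points are below 0 and 2 above it, and on the right all 7 are above 0.

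Of 14 listed genes for receptors and transcription factors known to act on complement transcription, all were tested, and in Cd 4 were lower and 10 did not pass, a share near the 24.9% of all tested genes that were lower. Il6st, the signalling chain of the IL-6 receptor, was 21.6 ± 1.35 TPM in the control group, 10.6 ± 2.19 TPM in the Cd group and 20.5 ± 4.07 TPM in the Cd+Se group (SD, n = 4). Its log2 fold change was -0.98 in Cd against control (limma adjusted p = 0.000533) and 0.89 in Cd+Se against Cd (limma adjusted p = 0.00534). Rela, which encodes an NF-kB subunit, was lower in Cd by -0.52 (limma adjusted p = 0.0291), a call lost after centring (-0.30, limma adjusted p = 0.0531), with weakly expressed genes kept in the test and without control mouse 27 or 29 or Cd mouse 2 or 5 (up to 0.0983). The nuclear receptor genes Hnf4a and Nr1h4, which encode HNF4 alpha and FXR, were lower in Cd by -0.81 and -0.86 (limma adjusted p of 0.00173 and 0.000718) and higher by 0.58 and 0.63 in Cd+Se against Cd (limma adjusted p of 0.0239 and 0.0139). The latter call of Hnf4a was lost with weakly expressed genes kept in the test and without Cd mouse 5 or Cd+Se mouse 14 or 15 (limma adjusted p up to 0.0781). Whether any of these genes bears on the complement mRNAs was not tested.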

How the data were processed

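Liver RNA was extracted with TRIzol, and a sequencing company made poly(A) libraries. The authors deposited 1 table of TPM for 57010 genes and 16 libraries. The submitters' processing notes name fastp, HISAT2, StringTie and GRCh38, without versions.

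Log2(TPM + 1) was fitted in R 4.3.3 by limma 3.58.1 with 4 group means and an intensity trend, over the 11766 genes whose mean reached 1 TPM, a step tested on simulated data. On this scale the change of weakly expressed genes is understated. Benjamini-Hochberg adjustment ran over all genes tested, with a threshold of 0.05. TPM keep no depth, so precision rests on 4 mice per group. The labels name no batch.

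The members and gene lists were chosen with earlier results of these data known. Named in addition are, per role, up to 4 other complement genes and up to 6 regulators past the threshold in any comparison, by the largest change in Cd against control, and Hc, C1qa and C4a in any case. Some listed genes are not reported here. Mt1 and Mt2 check the labels as to Cd, and 3 genes per member were ranked by likeness. Transcripts were aligned with biopython 1.88. Alternatives were a pseudocount of 0.1, no filter, a filter at a mean of 5 TPM, 3 other scalings, a fit of only the groups compared, no trend, a log2 fold change of at least 1, C4a and C4b summed, and leaving out each mouse in turn.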

Additional observations from a re-analysis of the deposited data

Results flagged for a closer look

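A mouse counted as standing apart where the highest or lowest of 4 values lay so far from the next, as a share of the group's range, that Dixon's critical value was passed. Of 144 sets of 4 values looked at, 6 met this, and chance gives about 1 in 20. Cfi and C2 were lowest in Cd mouse 5, at 255 TPM against 366 to 377 TPM and at 38.6 TPM against 48.4 to 50.2 TPM, with gaps of 0.913 and 0.850 of the range. C4b and Vtn were lowest in Se mouse 39, at 213 TPM against 303 to 317 TPM and at 1032 TPM against 1250 to 1288 TPM, with gaps of 0.863 and 0.852. The ratio of C4b to C3 was lowest in Cd mouse 6, at 0.254 against 0.407 to 0.429, with a gap of 0.877. Cfhr4 was highest in Cd+Se mouse 14, at 189 TPM against 152 to 157 TPM (0.874).

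The interaction term of Il6st, for whether its Cd difference depends on Se, was 0.99 on the log2 scale (SE 0.219, limma adjusted p = 0.0453). That is close to the threshold, and this term was not recomputed under the alternatives. Il6st was lower in Cd than in control mice, with 8.22 to 12.6 TPM against 20.3 to 22.9 TPM, and was 15.6 to 24.1 TPM in Cd+Se mice against 16.8 to 22.7 TPM in Se mice.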

How the results depend on the processing

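No paired analysis was possible because the mouse numbers are not shared between groups. Of 725 values recomputed for the members and comparisons described one by one, 681 kept direction and side of the threshold, 24 lost the call, 8 gained it and 12 changed sign. In Cd against control, 3 members passed; 5 did after centring, 0 with a log2 fold change of at least 1, and 2 to 3 with 1 mouse left out. In Cd+Se against Cd, 3 passed; 0 did with only the groups compared and 0 with a log2 fold change of at least 1, and 1 to 4 with 1 mouse left out (1 without Cd mouse 5 and 1 without Cd+Se mouse 14). In the other 4 comparisons 0 of the 9 passed under each alternative, of which the fit of only the groups compared could not be made for the interaction. In Cd against control, C2 turned to 0.019 after quantile normalization and 0.11 after centring, and Cfi to 0.0063 after centring. In Cd+Se against Cd, Cfb turned to -0.15 after centring, Fcna to -0.15 after quantile normalization, -0.18 after centring and -0.013 when rescaled without mitochondrial, metallothionein and Mup genes, and Vtn to 0.00043 after quantile normalization. In Cd+Se against control, C6 turned to -0.033 when rescaled and Masp1 to 0.0022 after centring. With 1 mouse left out, C6 in Cd+Se against control ranged from -0.13 to 0.10, Masp1 from -0.083 to 0.039, C4a in Cd against control from -0.078 to 0.36, and in Cd+Se against Cd C4a from -0.088 to 0.47 and Fcna from -0.14 to 0.22. The causes were not tested.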
